A study of Mus musculus with 6 samples.

Results

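The 8 genes described here, Ager, Hopx, Pdpn, Aqp5, Rtkn2, Akap5, Clic5 and Spock2, mark the alveolar type I (ATI) cell of the normal lung. They were taken by symbol from the 31055 features of a droplet-based single-cell RNA-sequencing matrix of mouse lung tumour cells, and all 8 symbols were found. Reads were collapsed by molecular barcode into UMIs (unique molecular identifiers) at transcripts' 3′ ends, and 1 UMI stands for 1 captured transcript whatever its length. The tumours arose in 6 mice that carried both copies of the Lkb1 XTR allele and a Cre-activated tdTomato reporter (Lkb1XTR/XTR;Rosa26LSL-tdTomato). Cre came from a lentivirus given into the trachea, which also put the Lkb1 gene (symbol Stk11) of all 6 mice into its trapped, inactive form. Tumours grew for 20 weeks, and 4 mg doses of tamoxifen or vehicle followed for 2 weeks. The 3 Restored mice carried FLPo-ERT2, a recombinase that tamoxifen activates and that turns the trapped allele back on, and received tamoxifen. Of the 3 NonRestored mice, 1 without FLPo-ERT2 received tamoxifen, 1 without it received vehicle and 1 with it received vehicle. The files used here do not tie a cell to its mouse, so Restored and NonRestored mice were not compared and all cells were treated as 1 pooled sample. There are thus no replicates, no test was run, and every 95% interval covers counting error only.

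ATI cells are the thin, flat cells across which the lung exchanges gas, while alveolar type II (ATII) cells make surfactant, store it in lamellar bodies and can give rise to ATI cells after injury. Sftpc encodes surfactant protein C and is the most used ATII marker. Cells between both types are known to carry high levels of the simple epithelial keratins Krt8 and Krt18. The question was at which levels of Sftpc and of these keratins each ATI gene was found, and which of the 8 were found at levels of Sftpc where others were not. The bins of Sftpc and keratin order cells by expression and not by time. Which mice fill a bin is not known here, so differences between bins cannot be told apart from differences between mice or in Lkb1 state.

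Of 16017 cells, 12183 had at least 500 detected genes and at most 20% mitochondrial UMIs, with a median of 19348 UMIs (range 671 to 125731). Of these, 453 carried endothelial, fibroblast or immune markers at 10 or more UMIs per 10000 with at least 2 genes of a list detected; they were left out of the bins and served as reference cells for free RNA, the transcripts that leak into droplets of other cells. The remaining 11730 cells were put into bins by their UMIs of Sftpc per 10000 (under 100, 100-500, 500 or more) and of Krt8 and Krt18 together (under 10, 10-50, 50 or more). Levels are UMIs per 1000000 (CPM) summed over the cells of a bin. Shares of cells with a UMI were taken after each cell had been thinned to 5000 UMIs, which 10745 cells reached.

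Most cells were Sftpc-high. The bin with Sftpc at 500 or more and keratin under 10 held 4869 cells, and that with keratin of 10-50 at the same Sftpc held 3484. At Sftpc under 100, 142 cells had keratin under 10, 959 had 10-50 and 748 had 50 or more. At Sftpc of 100-500 the corresponding numbers were 289, 805 and 269, and at Sftpc of 500 or more 165 cells had keratin of 50 or more. The edge of 100 lay near the free RNA level, since immune reference cells held Sftpc at 9799 CPM and endothelial ones at 2903 CPM. The bin low in both Sftpc and keratin was shallow (median 4034.5 UMIs) and 7 of its 142 cells were airway cells, with club cell markers at 82534 CPM over the bin. The bin with Sftpc of 100-500 and keratin under 10 had a median of 4715 UMIs and 11.0% mitochondrial UMIs; in both bins the part of these features in the levels was not tested. The cells had been sorted negative for CD45, CD31, F4/80 and Ter119, and with the reference cells taken out the summed endothelial, fibroblast and immune lists were at 0.225 to 3.39, 5.68 to 23.8 and 0.302 to 5.66 CPM over the 9 bins.

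The 8 genes differed widely in abundance. Ager (ENSMUSG00000015452, chr17:34597862-34600936, plus strand) encodes the receptor for advanced glycation end products on the basal membrane of ATI cells, and it had 357300 UMIs in 93.5% of the 12183 cells before thinning. Aqp5 (ENSMUSG00000044217, chr15:99590782-99594829, plus strand), a water channel of the apical membrane, had 289619 UMIs in 92.9% of cells. Hopx (ENSMUSG00000059325, chr5:77086988-77115121, minus strand), a homeodomain protein that does not bind DNA itself, had 85253 UMIs in 56.7%. All coordinates are those of whole genes in GENCODE M21 on GRCm38, the mm10 build of the files.

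The membrane and scaffold genes came next. Clic5 (ENSMUSG00000023959, chr17:44188584-44280172, plus strand), an intracellular chloride channel protein tied to the actin cortex, had 36269 UMIs in 59.1% of cells. Akap5 (ENSMUSG00000021057, chr12:76324891-76334153, plus strand), an anchoring protein for protein kinase A, had 22207 UMIs in 28.7%. The remaining 3 genes were rare, at 1360 to 3504 UMIs.

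Rtkn2 (ENSMUSG00000037846, chr10:67979570-68059740, plus strand), a rhotekin family protein, had 3504 UMIs in 8.86% of cells. Spock2 (ENSMUSG00000058297, chr10:60106219-60135198, plus strand), a secreted proteoglycan of the testican family, had 1584 UMIs in 5.89%. Pdpn (ENSMUSG00000028583, chr4:143267431-143299564, minus strand), the membrane glycoprotein podoplanin, had 1360 UMIs in 5.02%. Hopx overlaps the opposite-strand gene Hopxos, Rtkn2 overlaps Gm16212 on the other strand and Spock2 contains Mir6906.

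The 250 bases before the transcription start of 4 of the genes are shown to set beside their levels. They are Ager, which was found in nearly all cells, Hopx and Akap5, which ran alike over the bins, and Spock2, which was rare. The sequences are from RefSeq on GRCm38.p6, 5′ to 3′ on the gene's strand, with motif matches in capitals.
Ager (chr17:34597600-34597849, plus strand): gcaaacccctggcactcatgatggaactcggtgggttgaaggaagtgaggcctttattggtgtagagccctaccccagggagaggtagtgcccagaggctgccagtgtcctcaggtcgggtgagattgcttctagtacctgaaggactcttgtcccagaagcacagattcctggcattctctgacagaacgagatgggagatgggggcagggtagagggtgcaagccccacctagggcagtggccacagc
Hopx (chr5:77115124-77115373, minus strand): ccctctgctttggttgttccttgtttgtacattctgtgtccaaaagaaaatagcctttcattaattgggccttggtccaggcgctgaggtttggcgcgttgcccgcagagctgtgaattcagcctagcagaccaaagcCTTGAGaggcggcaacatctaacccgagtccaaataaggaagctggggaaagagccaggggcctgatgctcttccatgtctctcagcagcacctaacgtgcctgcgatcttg
Akap5 (chr12:76324641-76324890, plus strand): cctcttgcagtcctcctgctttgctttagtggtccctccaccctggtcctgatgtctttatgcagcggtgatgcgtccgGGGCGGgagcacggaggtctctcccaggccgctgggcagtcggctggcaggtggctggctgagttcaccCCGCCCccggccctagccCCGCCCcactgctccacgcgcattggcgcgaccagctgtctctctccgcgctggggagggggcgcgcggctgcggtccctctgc
Spock2 (chr10:60106007-60106256, plus strand): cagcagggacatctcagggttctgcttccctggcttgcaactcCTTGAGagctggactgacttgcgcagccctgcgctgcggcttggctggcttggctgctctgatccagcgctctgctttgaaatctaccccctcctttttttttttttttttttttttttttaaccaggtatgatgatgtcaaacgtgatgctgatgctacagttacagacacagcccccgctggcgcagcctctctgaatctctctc
A further RefSeq start of Hopx had no match. The letters searched on both strands were GGAATG for TEAD factors, CTCAAG for NKX2-1, GGGCGG for SP and KLF factors and TTGCGCAA for C/EBP factors, and no match overlapped another. The table held promoters of 7 of the 8 genes and not of Rtkn2. GGAATG stood in 12.6% of 32851 RefSeq promoter windows of this length and in 0 of the 7 genes. CTCAAG stood in 13.3% of all windows and in those of Hopx, 112 to 107 bases before the start, and Spock2. GGGCGG stood in 32.7% of all windows and in those of Akap5, Aqp5 and Clic5, with 3 matches for Akap5. TTGCGCAA stood in 0.164% of all windows and in none of these. The windows of Hopx and Akap5, whose levels ran alike over the bins (Pearson 0.969), held different motifs. A match of letters does not show that a factor is bound.

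Sftpc-high cells with little keratin carried transcripts of Ager and Aqp5, while most of the other members were at or near the level of free RNA. In that bin Ager was at 864 CPM (exact Poisson 95% interval 858 to 869) and Aqp5 at 754 CPM (749 to 759). The highest reference cells for both genes, the immune ones, held Ager at 152 CPM and Aqp5 at 98.1 CPM. After thinning, 89.1% of the 4694 cells in the bin had a UMI of Ager (exact binomial 95% interval 88.2 to 90.0), against 12.5% of immune, 12.2% of fibroblast and 8.64% of endothelial reference cells (72, 189 and 81 cells with 5000 UMIs). Aqp5 was found in 90.3% (89.4 to 91.1), against 6.88% to 9.88% of reference cells. Before thinning, the shares in the bin were 97.1% for Ager and 97.4% for Aqp5 at a median of 20814 UMIs. Ager and Aqp5 were therefore found in nearly all Sftpc-high cells, at shares far above those that free RNA gave in other cell types.

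Hopx was just above the reference in the same bin. Its level was 95.4 CPM, 1.71-fold that of immune reference cells (1.41 to 2.10), and 22.6% of cells had a UMI (21.4 to 23.8) against 5.29% to 9.88% of reference cells. Clic5, which endothelial cells are known to express and which stood at 234 CPM in the endothelial reference, was at 60.1 CPM in the bin, 2.40-fold that of fibroblasts (1.98 to 2.95). Its share of 22.6% stood between the 61.7% of endothelial cells and the 4.76% of fibroblasts.

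The remaining 4 genes could not be told from free RNA in this bin. Akap5 was at 18.1 CPM, 0.776-fold its endothelial reference (0.565 to 1.09) though 3.08-fold the fibroblast one (2.07 to 4.82). Its share of cells was 6.31% against 2.47% to 8.33%. Rtkn2 was at 3.17 CPM, 1.43-fold the fibroblast reference (0.746 to 3.16). Pdpn, which fibroblasts are known to express, was at 1.93 CPM and 1.21-fold the immune reference (0.409 to 5.92). Spock2 was at 1.07 CPM, below the 7.20 CPM of endothelial cells. Where the interval of a ratio to the reference included 1 or lay below it, the value is read as background and not as expression.

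**Figure D1:**
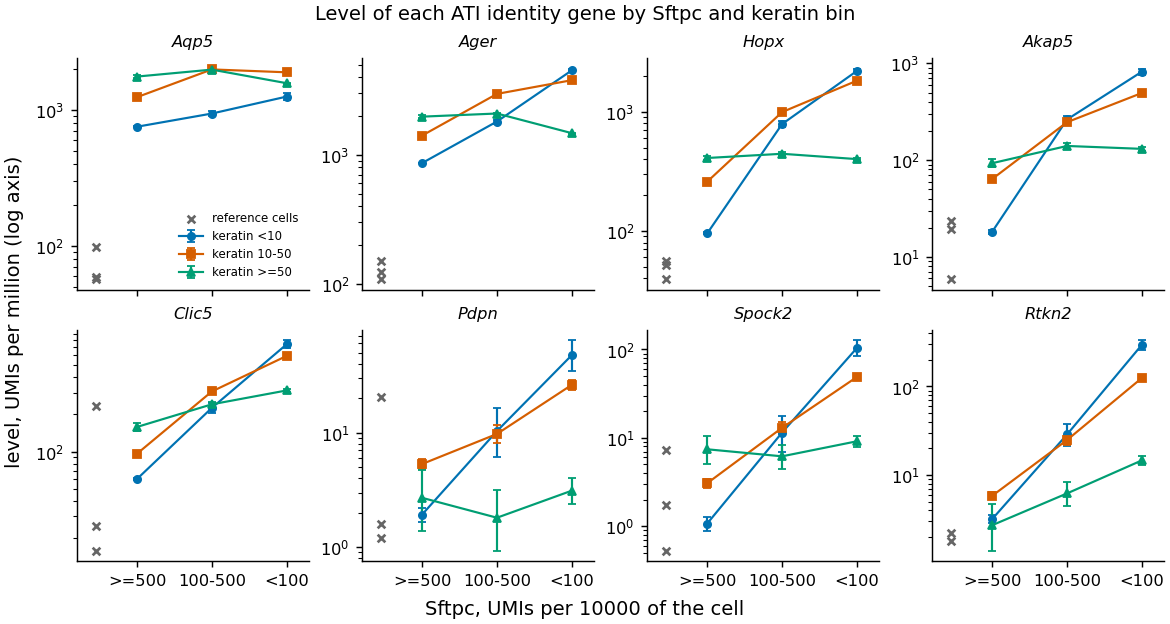
Level of each gene in CPM (log axis) against the Sftpc bin, with a line for each keratin bin; bars are exact Poisson 95% intervals and crosses are the endothelial, fibroblast and immune reference cells (immune Rtkn2, at 0, is not drawn). Ager and Aqp5 lie above all crosses in every bin, while at Sftpc of 500 or more with keratin under 10 Akap5, Pdpn and Spock2 lie at or below a cross and Rtkn2, at 3.17 CPM, lies just above the highest, 2.21 CPM, with a ratio whose interval includes 1.

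With keratin of 10-50 and Sftpc still at 500 or more, Akap5 and Rtkn2 were above every reference, and Pdpn was above its immune and endothelial ones. Akap5 stood at 63.7 CPM there, 2.72-fold its highest reference (1.99 to 3.83), and in 16.4% of 3380 cells (15.1 to 17.7). Rtkn2 stood at 5.80 CPM, 2.63-fold (1.37 to 5.78), and Pdpn at 5.32 CPM, 3.35-fold the immune reference (1.14 to 16.3) though below the 20.4 CPM of fibroblasts. The immune and endothelial references held only 3 and 2 UMIs of Pdpn. Spock2 remained below its endothelial reference at 3.06 CPM, 0.426-fold (0.239 to 0.835). Spock2 was above every reference in 3 of the 9 bins, those at Sftpc under 100 with keratin under 10 or of 10-50 and, narrowly, that at Sftpc of 100-500 with keratin of 10-50 (1.80-fold, 1.00 to 3.57). Pdpn was above its endothelial and immune references in 5 of 9 bins, Rtkn2 above every reference in 7 and Akap5 in 8, while Ager, Aqp5 and Hopx, and Clic5 with its endothelial reference set aside, were above in 9 of 9.

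Set against the same Sftpc-high cells with keratin under 10, the step to keratin of 10-50 was at least 2-fold for 2 of the 5 members at 10 CPM or more, where 1.84% of 7735 genes tested were at least 2-fold higher; none of the 5 was 2-fold lower, as 0.181% of genes were. Akap5 was 3.51-fold higher (exact binomial 95% interval 3.33 to 3.70) and Hopx 2.72-fold (2.65 to 2.78). Akap5 could not be told from free RNA at keratin under 10, so its ratio is one to background. Aqp5 was 1.65-fold higher, Ager 1.63-fold and Clic5 1.60-fold. Pdpn, Rtkn2 and Spock2 were under 10 CPM in both bins; with a minimum of 1 CPM the count was 4 of 8 (4.09% of genes called), but of the 2 members added, Spock2 was below its endothelial reference in both bins and Pdpn was not above its immune reference at keratin under 10, so their ratios are not read as differences in expression. The median gene moved by 0.14 on the log2 scale, and the members tested by a median of 0.72. In the same comparison Lyz2, the lysozyme of ATII cells, stood at 15089 CPM at keratin under 10 and 8393 CPM at 10-50, while Sftpb, another surfactant protein, was at 11666 and 11630 CPM.

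With the keratin bins pooled, cells low in Sftpc carried more of all 8 genes than Sftpc-high cells. At keratin of 50 or more alone this did not hold for Ager, Aqp5 and Hopx: Ager was at 1472 CPM under 100 and 1976 CPM at 500 or more, Aqp5 at 1576 and 1764 CPM, and Hopx at 401 and 410 CPM with overlapping intervals. Pdpn (3.12 and 2.70 CPM) and Spock2 (9.15 and 7.43 CPM) also had overlapping intervals there. Pdpn was not above its immune reference and Spock2 not above its endothelial one. At Sftpc under 100, 7 of 8 members were at least 2-fold higher than at 500 or more, where 13.5% of 8532 genes tested were at least 2-fold higher; 0 of 8 were 2-fold lower, as 4.43% of genes were. The median gene was 0.44 higher on the log2 scale, the median member 2.53. Part of that shift is the share that Sftpc itself takes, 11.9% of the UMIs in the bins: relative to the median gene, the count was 6 of 8, with Ager no longer 2-fold and 6.62% of genes called, and with Sftpc out of the denominator it was again 6, with 8.77% called. Pdpn, Rtkn2 and Spock2 were under 10 CPM at high Sftpc and were tested only through their level at low Sftpc, so their being counted is no support for a difference.

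Rtkn2 and Spock2 had the widest ratios. Rtkn2 stood at 66.3 CPM under 100 and 4.28 CPM at 500 or more, a ratio of 15.5 (14.3 to 16.8). Spock2 stood at 27.6 and 2.07 CPM, a ratio of 13.4 (11.9 to 15.0). At high Sftpc, the level of Spock2 lay within the 0.530 to 7.20 CPM of reference cells. Rtkn2 lay just above their highest, 2.21 CPM (1.94-fold the fibroblast reference, 1.02 to 4.25). Its ratio to the endothelial reference had an interval that included 1 (2.38-fold, 0.811 to 11.6). Both genes are therefore read as background at high Sftpc, and their ratios and rank as ones to background.

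The ratios of the other members were smaller. Akap5 was at 295 and 39.3 CPM, 7.51-fold higher (7.29 to 7.73), Hopx at 1022 and 172 CPM, 5.93-fold (5.84 to 6.02), and Clic5 at 437 and 77.8 CPM, 5.61-fold (5.49 to 5.74). Pdpn was at 13.5 and 3.39 CPM, 3.99-fold (3.53 to 4.50), but its level at high Sftpc could not be told from that of immune reference cells (2.13-fold, 0.727 to 10.4). Ager was at 2481 and 1122 CPM, 2.21-fold (2.19 to 2.23), and Aqp5 at 1696 and 986 CPM, 1.72-fold (1.70 to 1.74). The 2 genes found in nearly every Sftpc-high cell were thus the 2 with the smallest ratios between the ends of the Sftpc range.

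Keratin differs between the Sftpc bins, so the same steps were read at keratin of 10-50 alone, where the 3 Sftpc bins had 805 to 3484 cells. There 7 of 8 members were at least 2-fold higher at Sftpc under 100 than at 500 or more (9.9% of 8678 genes tested), and 0 were 2-fold lower (3.43% of genes). Pdpn, Rtkn2 and Spock2 again were under 10 CPM at high Sftpc, and their being counted supports nothing. Ager went from 1410 CPM at Sftpc of 500 or more to 2964 at 100-500 and 3785 under 100. Aqp5 went from 1244 to 1991 and 1895 CPM, Hopx from 259 to 996 and 1828, and Clic5 from 96.2 to 306 and 594. Akap5 went from 63.7 to 247 and 495 CPM, Rtkn2 from 5.80 to 24.8 and 125, Spock2 from 3.06 to 13.0 and 48.9, and Pdpn from 5.32 to 9.74 and 26.1.

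The members reached their low-Sftpc level at different steps. As a percent of the level at Sftpc under 100, the level at 100-500 was 105% for Aqp5 (103 to 107) and 78.3% for Ager (77.3 to 79.4). It was 54.5% for Hopx (53.3 to 55.7), 51.6% for Clic5 (49.6 to 53.7) and 49.9% for Akap5 (47.7 to 52.1), a group in which the intervals of neighbours overlapped. It was 37.3% for Pdpn (30.0 to 46.0), 26.6% for Spock2 (22.2 to 31.7) and 19.9% for Rtkn2 (17.5 to 22.5). Pdpn overlapped Spock2, and Spock2 overlapped Rtkn2. The order was thus Aqp5, Ager, then Hopx, Clic5 and Akap5, then Pdpn, Spock2 and Rtkn2, on a scale that sets each gene against its own level and not against more abundant genes. Over all keratin bins together the values were 112% for Aqp5, 104% for Ager, 78.2% for Hopx, 72.3% for Akap5, 63.8% for Clic5, 53.3% for Pdpn, 38.6% for Spock2 and 28.8% for Rtkn2, and 27 of the 28 gene pairs were in the same order at keratin of 10-50; the pair that changed places was Akap5 and Clic5. Against Sftpc at 500 or more, 6 of the 7 members tested were already at least 2-fold higher at 100-500 (7.62% of 8425 genes tested), and Aqp5, at 1.93-fold, was not. Rtkn2 and Spock2 entered that count only through 100-500 (19.1 and 10.6 CPM), so their being counted is no support. Over all keratin bins, Spock2 at 100-500 was not above its endothelial reference (1.48-fold, 0.829 to 2.91), so its 38.6% and its place there are read as background. Pdpn was under 10 CPM at 100-500 and at 500 or more and was not tested.

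**Figure D2:**
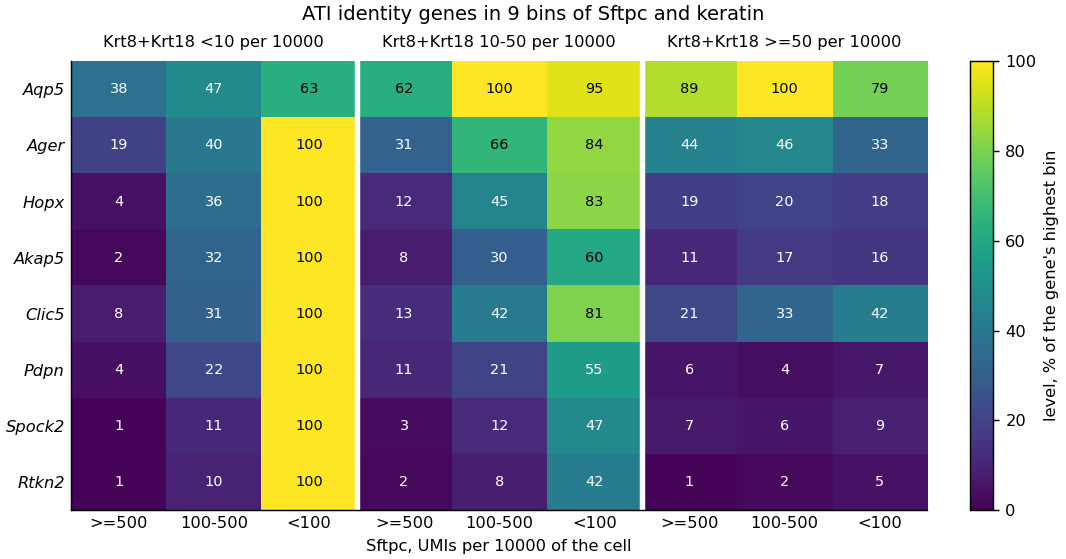
Level of each gene in the 9 bins of Sftpc and Krt8+Krt18 (UMIs per 10000 of the cell) as a percent of the gene's highest bin, genes in the order of their level at Sftpc 100-500 relative to under 100. Aqp5 is at 37.9% or more of its highest level in each bin, Rtkn2 and Spock2 are at 12.5% or less outside Sftpc under 100 with keratin below 50, and every gene but Aqp5 is highest in the shallow bin of 142 cells low in both.

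The spread among cells of a bin was wide for the intermediate genes. At keratin of 10-50, the median cell held Hopx at 0.373 UMIs per 10000 at Sftpc of 500 or more, 2.57 at 100-500 and 11.8 under 100. In the middle bin the lower and upper quartiles were 0 and 12.5 per 10000, so the bin's level is a mean over unlike cells. Ager was more even: at Sftpc of 100-500 the quartiles were 9.71 and 41.7 per 10000 around a median of 22.5. Aqp5 had quartiles of 6.77 and 24.0 around 14.2.

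The relation to keratin was not a steady climb. Over all Sftpc bins, 4 of the 6 members tested were at least 2-fold higher at keratin of 50 or more than under 10 (16.9% of 8372 genes tested higher and 5.54% lower, with 0 members lower): Akap5 (4.47-fold, 4.26 to 4.68), Clic5 (4.03-fold, 3.90 to 4.16), Hopx (3.34-fold, 3.26 to 3.42) and Aqp5 (2.22-fold, 2.20 to 2.25). Akap5 at keratin under 10 was not above its endothelial reference (1.22-fold, 0.889 to 1.72), so its ratio is one to background. Ager was 1.85-fold and Rtkn2 1.87-fold higher, and Rtkn2, at 5.93 CPM under 10, was tested only through its 11.1 CPM at 50 or more. The median gene was 0.42 higher on the log2 scale, and the median member 1.45. The count hung on the cells and edges used: it was 7 of 7 without the 704 cells with the most UMIs (43982 or more; 16.9% of genes called), where Spock2, at 2.06 CPM at keratin under 10 over all cells, was the member added, and 1 of 6 with keratin edges of 20 and 100, a share near the 16.1% of all genes called there. As a percent of the level at keratin of 50 or more, the level at 10-50 was 304% for Pdpn, 207% for Rtkn2, 131% for Hopx, 120% for Spock2, 112% for Ager, 109% for Akap5, 83.3% for Aqp5 and 66.3% for Clic5, with overlapping intervals between neighbours from Hopx to Akap5. At keratin of 50 or more Pdpn was not above its immune reference and Spock2 not above its endothelial one. Their places in this order are therefore read as background. At keratin of 10-50 against under 10, 5 of 6 members were at least 2-fold higher, where 3.54% of 7964 genes were; 0 were 2-fold lower (0.389% of genes). Rtkn2, at 5.93 CPM under 10, was tested only through its 22.9 CPM at 10-50.

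Within cells at Sftpc under 100, the genes were lower at the highest keratin. Against keratin of 10-50, 6 of 8 members were at least 2-fold lower at 50 or more, where 4.17% of 8660 genes tested were, and 0 were 2-fold higher (2.33% of genes). Pdpn and Spock2, at 3.12 and 9.15 CPM at keratin of 50 or more, were tested only through their level at 10-50, so their being counted is no support. Here the median member was 2.05 lower on the log2 scale while the median gene moved by -0.06. Rtkn2 stood at 125 and 14.6 CPM, and so kept 11.7% of its level (10.3 to 13.3). Pdpn kept 11.9% (8.94 to 15.7), Spock2 18.7% (15.8 to 22.1), Hopx 22.0% (21.4 to 22.5) and Akap5 26.4% (25.2 to 27.7). Ager kept 38.9% (38.3 to 39.5), Clic5 52.6% (50.9 to 54.4) and Aqp5 83.2% (81.8 to 84.5). At the higher keratin Pdpn was not above its immune reference and Spock2 not above its endothelial one, so their percents are read as ones of background. Aqp5 kept most of its level in this comparison, but over all Sftpc bins its step from keratin under 10 to 50 or more (2.22-fold) was wider than that of Ager (1.85-fold). These high-keratin cells were deeper (median 23428 UMIs against 11029) and had fewer mitochondrial UMIs (1.83% against 2.58%), and the part of depth in the levels was not tested.

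Along keratin, the levels ran in opposite directions at high and at low Sftpc for Ager, Hopx, Clic5 and Akap5. Over the keratin bins under 10, 10-50 and 50 or more at Sftpc of 500 or more, Ager stood at 864, 1410 and 1976 CPM. Hopx stood there at 95.4, 259 and 410 CPM, and Aqp5 at 754, 1244 and 1764 CPM. As a percent of its highest bin, Clic5 stood at 8.15%, 13.0% and 21.5% at Sftpc of 500 or more and at 100%, 80.5% and 42.4% under 100. Akap5 stood at 2.21% (not above its endothelial reference), 7.76% and 11.3%, and at 100%, 60.2% and 15.9%. At Sftpc under 100 the same keratin steps gave 1257, 1895 and 1576 CPM for Aqp5, 4510, 3785 and 1472 CPM for Ager, and 2208, 1828 and 401 CPM for Hopx. Hopx was thus at like levels, 401 to 445 CPM, in the 3 bins with keratin of 50 or more, whatever the Sftpc. Ager ranged there from 1472 to 2090 CPM and Akap5 from 92.9 to 140 CPM. Pdpn at 1.81 to 3.12 CPM could not be told from free RNA in any of these 3 bins. Spock2 at 6.18 to 9.15 CPM was not above its endothelial reference in any of them. It was above the fibroblast one, by 5.33-fold (2.53 to 13.4), 3.60-fold (1.60 to 9.51) and 4.32-fold (1.88 to 11.6) from low to high Sftpc.

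The ratio of 1 member to another changed along the bins. Per 100 UMIs of Ager there were 11.0 of Hopx in cells with Sftpc of 500 or more and keratin under 10. With keratin of 10-50 there were 18.4 at Sftpc of 500 or more, 33.6 at 100-500 and 48.3 under 100, and 27.3 at Sftpc under 100 with keratin of 50 or more. Reference cells had 36.2 to 42.4. Aqp5 ran the other way, with 88.2, 67.2 and 50.1 per 100 Ager UMIs over the 3 Sftpc steps at keratin of 10-50, and with 107 at Sftpc under 100 and keratin of 50 or more.

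In single cells, the number of the 8 genes with a UMI at 5000 UMIs had a median of 2. Of the 10745 cells, 128 (1.19%) had none, 932 had 1, 4382 had 2, 2485 had 3, 1302 had 4, 935 had 5, 393 had 6, 137 had 7 and 51 had all 8. At least 4 members were found in 26.2% of cells (exact binomial 95% interval 25.4 to 27.1). By bin, that share was 10.1% at Sftpc of 500 or more with keratin under 10, and 22.8%, 58.1% and 77.0% at Sftpc of 500 or more, 100-500 and under 100 with keratin of 10-50. It was 50.5% at Sftpc under 100 with keratin of 50 or more. Of reference cells, 2.47% of endothelial, 1.59% of fibroblast and 1.39% of immune cells had at least 4.

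**Figure D3:**
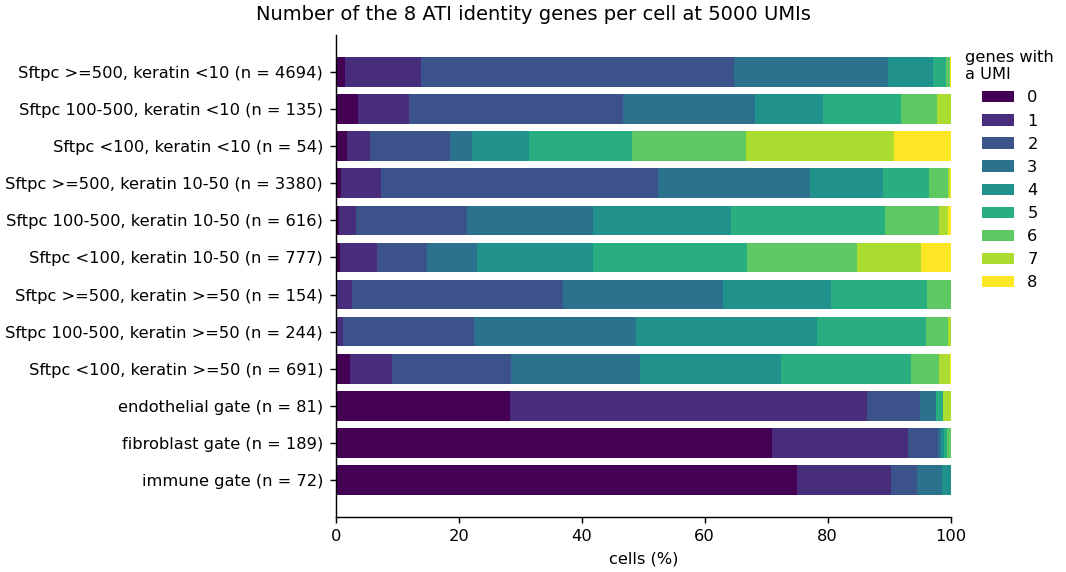
Share of cells (%) with 0 to 8 of the genes after thinning to 5000 UMIs, by Sftpc and Krt8+Krt18 bin (UMIs per 10000) and in reference cells, with the number of cells behind each bar. At Sftpc of 500 or more with keratin under 10 2387 of 4694 cells hold 2 genes, while at Sftpc under 100 with keratin of 10-50 the median is 5.

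The sets that cells held were few. Ager and Aqp5 alone made up 37.6% of cells (4044). Ager, Aqp5 and Hopx followed with 10.9%, Ager, Aqp5 and Clic5 with 9.51%, all of these 4 with 7.96%, and the same 4 with Akap5 with 7.68%. Of the 932 cells with 1 member, 488 had Aqp5, 381 Ager, 38 Hopx and 20 Clic5.

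Sorted by how many members a cell held, the genes came in at different counts. Among cells with 3 members, 49.7% had Hopx, 43.3% Clic5 and 7.73% Akap5. Among cells with 4, 88.7% had Hopx, 77.0% Clic5 and 28.6% Akap5, and among those with 5, 91.7% had Akap5. Rtkn2, Spock2 and Pdpn were under 6% in cells with up to 5 members. In cells with 6 they were at 50.1%, 32.8% and 20.1%, and in cells with 7 at 83.9%, 78.1% and 38.0%. This sorting by counts favours abundant genes, unlike the percents of a gene's own level above.

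**Figure D4:**
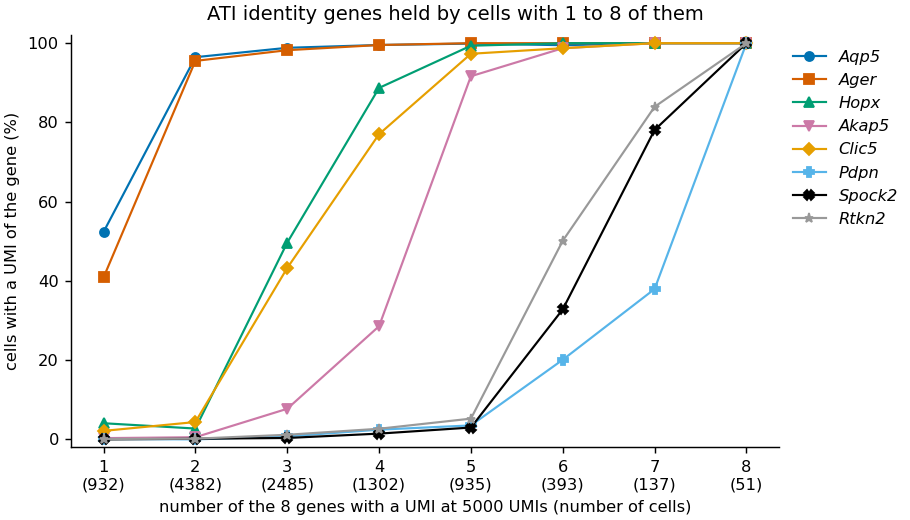
Share of cells (%) with a UMI of each gene against the number of the 8 genes found in the cell at 5000 UMIs, with the number of cells under each tick. Ager and Aqp5 are at over 95% from 2 genes on, Hopx and Clic5 climb at 3 and 4, Akap5 at 5, and Rtkn2, Spock2 and Pdpn from 6.

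The level of a gene over cells grouped by the other 7 gives values for each. Cells with 4 of the other members held Aqp5 at 92.5% of its level in cells with 5 or more others, Ager at 57.8%, Clic5 at 49.0%, Hopx at 39.3% and Akap5 at 27.5%. Pdpn was at 17.4%, Rtkn2 at 9.95% and Spock2 at 7.77%. Spock2, at 3.71 CPM in these cells, was below its endothelial reference, so its percent is one of background. In cells with 2 others, Aqp5 was at 48.5% (1119 CPM), Ager at 19.1% (1160 CPM), Clic5 at 6.47%, Pdpn at 2.55%, Hopx at 2.41%, Rtkn2 at 1.37%, Akap5 at 0.995% and Spock2 at 0.625%. Aqp5, Ager and Clic5 led in both groups of cells. In cells with 2 others, Akap5 (8.23 CPM), Pdpn (0.836 CPM), Rtkn2 (1.38 CPM) and Spock2 (0.298 CPM) were below their highest reference, so their order there is one of background.

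Lyz2, Hc and Sftpc were lower in cells with 3 or more members than in those with 1. Lyz2 was at 15094 CPM in cells with 1 member, 8807 with 3, 1514 with 5 and 161 with all 8. Hc, complement component 5, was at 452, 336, 81.5 and 19.3 CPM in the same cells. The median Sftpc was 1476, 1341, 311 and 24.8 UMIs per 10000. The 128 cells with no member did not extend this, with Lyz2 at 12253 CPM, Hc at 361 CPM and a median Sftpc of 1215 per 10000. The median depth of the cells with 1, 3, 5 and 8 members before thinning was 19801.5, 21836, 17585 and 10070 UMIs.

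The tie to Lyz2 was also seen within a bin. Among Sftpc-high cells with keratin under 10, the 1061 cells with a Hopx UMI held Lyz2 at 11026 CPM and the 3633 without at 16301 CPM. The 296 cells with an Akap5 UMI held it at 8898 CPM and the 4398 without at 15500 CPM. For Ager the values were 14469 CPM in 4183 cells with and 20879 CPM in 511 without, while for Aqp5 they were 15090 and 15665 CPM. With keratin of 10-50 at the same Sftpc, Lyz2 was at 4867 CPM with and 10229 CPM without Hopx, at 3306 and 9290 CPM with and without Akap5, and at 8256 and 12384 CPM with and without Aqp5.

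Pairs of members were found in the same cell more often than their shares within each of the 9 bins give. Summed over the bins, all 28 pairs were above that expectation, with a median ratio of 1.36 and a range of 1.01 to 3.21. Within single bins, over pairs with at least 10 cells expected, the median ratio was 1.01 to 1.13. Not all such pairs were above 1. At keratin of 50 or more, 7 of 10 were at Sftpc of 100-500 and 8 of 10 at 500 or more. At keratin of 10-50, 24 of 25 were at each of these Sftpc levels. Pairs with Ager or Aqp5 were close to 1, at 1.01 to 1.08, since both genes were found in nearly all cells. The highest ratios were those among the rare genes: Pdpn with Spock2 (3.21; 75 cells), Pdpn with Rtkn2 (2.52; 84 cells) and Spock2 with Rtkn2 (2.50; 143 cells). Akap5 with Pdpn (2.16), Spock2 (1.98) and Rtkn2 (1.83) followed, and Hopx with Akap5 was at 1.54 (1695 cells). Bins are broad, and cells of 1 bin can still differ in Sftpc and keratin; how much of the excess comes from this was not tested.

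Co-detection was unequal in direction, because the same cells are set against the total of a rare or of an abundant gene. Of the 485 cells with Rtkn2, 89.1% had Hopx (exact binomial 95% interval 86.0 to 91.7) and 77.1% had Akap5 (73.1 to 80.8), while 10.6% of cells with Hopx and 18.5% of cells with Akap5 had Rtkn2. Of cells with Spock2, 93.7% had Hopx (90.6 to 96.0), 88.9% Clic5 and 84.3% Akap5 (80.0 to 87.9). Of cells with Akap5, 83.8% had Hopx and 75.7% Clic5, while 41.8% of cells with Hopx had Akap5 (40.3 to 43.3). Of cells without Hopx, 4.92% had Akap5 and 0.329% Spock2. Among the rare genes both directions were lower: of cells with Spock2 40.9% had Rtkn2 and of cells with Rtkn2 29.5% had Spock2, and of cells with Pdpn 31.5% had Rtkn2 and of cells with Rtkn2 17.3% had Pdpn. Most cells with Rtkn2, Spock2 or Akap5 thus also had Hopx, at 5000 UMIs per cell. The shares within bins alone gave Hopx in 312 of the 485 cells with Rtkn2 (432 observed) and in 228 of 350 with Spock2 (328 observed). For Akap5 they gave 1103 of 2024 cells (1695 observed).

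**Figure D5:**
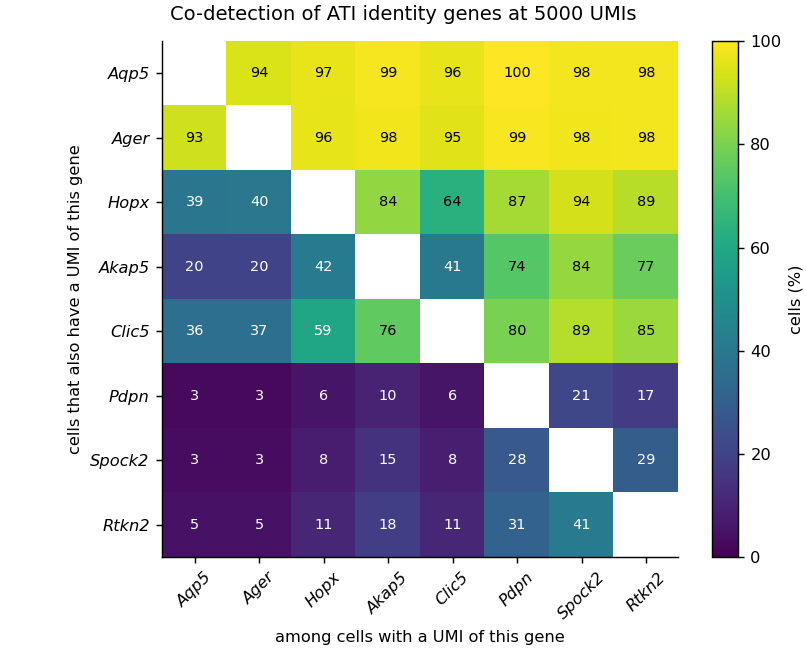
Percent of cells with a UMI of the column gene that also had a UMI of the row gene, at 5000 UMIs per cell. Of cells with Rtkn2 77.1% had Akap5, and of cells with Akap5 18.5% had Rtkn2.

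A further list of 20 genes used as ATI markers gave a similar picture. At Sftpc under 100, 15 of the 19 tested were at least 2-fold higher than at 500 or more, with a median of 1.81 on the log2 scale, beside 13.5% of all genes tested and their median of 0.44. Lama3, a laminin chain of basement membranes, was 3.85 higher on that scale (104 and 7.24 CPM) but, being under 10 CPM at high Sftpc, was tested only through low Sftpc. Emp2, a tetraspan membrane protein, was 1.81 higher and Vegfa, the endothelial growth factor, 0.46 higher. Igfbp2, taken as a marker of mature ATI cells, was at 1.67 CPM under 100 and so below the minimum.

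The list split at high keratin. Within Sftpc under 100, 8 of the 19 were at least 2-fold lower at keratin of 50 or more than at 10-50 and 1, Krt7, was 2-fold higher (2582 and 1271 CPM), beside 4.17% and 2.33% of all genes tested. Scnn1g, a subunit of the epithelial sodium channel, was 2.60 lower on the log2 scale, Col4a3, a type IV collagen chain, 1.88 lower (66.1 and 243 CPM), and Limch1 2.58 lower. Lmo7 was at 1480 and 1476 CPM, and Gprc5a at 418 and 409.5 CPM. In Sftpc-high cells, keratin of 10-50 against under 10 gave 4 of 17 at least 2-fold higher (1.84% of all genes tested), among them Col4a3 (38.6 and 18.3 CPM).

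Over a finer grid of 27 bins with at least 50 cells, the genes whose log2 level ran most like that of the summed members were found among 4970 genes. Clic3, a paralogue of Clic5, had the highest Pearson correlation (0.978), followed by Cavin2, a caveolar coat protein (0.977), Wdr45 (0.972), Sec14l3 (0.969), Myct1 (0.967) and Pmp22 (0.963). Fam174b, Col4a3, Sypl and Slco3a1 completed the 10, at 0.941 to 0.957. Clic3 ran from 90.0 to 647 CPM and Cavin2 from 2.60 to 223 CPM over the grid. These correlations describe 27 points that share 1 library pool and the Sftpc share of the total.

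Single members had different companions. Ager was most like Cavin2 (0.969), Hopx like Col4a3 (0.963), Akap5 like Col4a4 (0.968), Clic5 like Epb41l4a (0.975), Rtkn2 like Arhgef26 (0.971) and Spock2 like Bdnf (0.959). Aqp5 was most like Smarcb1 (0.971). Among the members themselves, Hopx and Akap5 were the most alike (0.969) and Pdpn and Aqp5 the least (0.321).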

How the data were processed

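Sorted neoplastic cells (negative for CD45, CD31, F4/80 and Ter119) of 6 mice were profiled with 10x 3′ v3 libraries. The deposited values are counts, whole UMI counts per gene and cell; the authors made them with Cell Ranger 3.0.2 on mm10 (per the file headers and labels), pooled in 1 matrix of 16017 cells. The gene annotation release is not given in the sources used here. Gene IDs matched GENCODE M21 for 99.6% of features. As cells were not tied to mice, the planned tests between groups were not run.

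Cells with at least 500 genes and at most 20% mitochondrial UMIs were kept. Levels carry exact Poisson, ratios exact conditional binomial and shares exact Clopper-Pearson 95% intervals. Thinning to 5000 UMIs per cell (seed 42) left out 985 shallower cells of the bins. In each comparison genes with at least 10 CPM in either bin were tested against a 2-fold threshold. The genes named are the 8 members, those that set the bins, a list of 20 further ATI genes (examples by ratio), Lyz2, Hc and Sftpb as ATII markers, and the genes most alike over bins (log2 of CPM plus 10; genes at 50 CPM in a bin). Lmo7, Gprc5a, Scnn1g, Limch1 and Krt7 were picked as examples after their values were seen. Airway cells had Scgb1a1 at 100 or more UMIs per 10000 or ciliated markers. Doublets were kept and no caller was run; leaving out the 6% of cells with the most UMIs was an alternative. Others changed cell limits, denominators, weighting, bin edges, thinning and the UMI minimum. Ratios and thinning were tested on simulated data. An allele that all 6 mice shared and the gene most like Pdpn over the bins are not reported here. The members, bins and lists were chosen with earlier results of these data known. Scripts ran in Python 3.11.15 with scipy 1.17.1, numpy 2.4.6, matplotlib 3.10.9 and pandas 2.3.3.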

Additional observations from a re-analysis of the deposited data

How the results depend on the processing

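The number of members at least 2-fold higher at low Sftpc (7) was 6 to 7 under every alternative, beside 6.62% to 18.2% of all genes tested. Pdpn, Rtkn2 and Spock2 were under 10 CPM at high Sftpc in the main setting, so their being counted is no support. All 28 pairs, summed over the bins, stayed above expectation under every alternative run. Of the 28 pairs in the order at Sftpc of 100-500, 27 or 28 kept their order, and 23 to 28 did for keratin of 10-50 against 50 or more. Single values moved more: 63 of 96 percents behind the Sftpc order and 66 of 96 low-Sftpc ratios fell outside their counting intervals. Over the alternatives the percents were 89.6 to 133 for Aqp5, 72.5 to 124 for Ager, 50.2 to 93.0 for Hopx and 46.0 to 85.9 for Akap5. They were 42.4 to 77.2 for Clic5, 37.3 to 63.1 for Pdpn, 26.6 to 52.9 for Spock2 and 17.8 to 49.1 for Rtkn2. For high against low keratin the count of 4 became 7 without the 6% of cells with the most UMIs and 1 with keratin edges of 20 and 100, where Rtkn2 turned to -0.32 on the log2 scale. Among Sftpc-high cells the count of 2 became 4 with a minimum of 1 CPM, as 3 more members were then tested. The share of cells with at least 4 members (26.2%) was 20.8% at 3000 UMIs, 35.0% at 10000, 49.3% without thinning, 14.9% with a minimum of 2 UMIs and 28.0% at no more than 10% mitochondrial UMIs. Alternatives without airway cells, relative to the median gene and, for the order, at keratin of 10-50 only were chosen after seeing the data; none moved a count by over 1.5 times. No paired analysis was run because the files used here do not tie cells to mice, and for the same reason no mouse was left out. Depth limits Pdpn, Rtkn2 and Spock2, whose shares at 5000 UMIs miss cells with few transcripts.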
